A study of Mus musculus and Homo sapiens with 33 samples.

Results

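The subject of these results is the set of unannotated loci in a table of LLC1 cells with overexpression of cEmsy, a circular RNA. LLC1 is a mouse Lewis lung carcinoma line. The table holds 2509 rows, of which 723 (28.8%) carry a number given by the authors (NewGene_5 to NewGene_10825) in place of a mouse gene identifier, and all 723 were taken as members. The other 1786 rows are annotated genes. The comparison is between 3 libraries of cells with cEmsy overexpression and 3 control libraries, all of the same line. The labels give the overexpression cells the genotype "cEmsy overexpression" and the controls the genotype "WT" with the treatment "EV", which the series description pairs with circular RNA overexpression. The control columns are headed NC and are not tied to single labelled libraries. How the circular RNA was delivered, for how long, and whether the libraries came from separate cultures or clones are not stated in the labels, so the spread behind the p-values is that between these libraries and may be technical. The level of cEmsy itself was not analysed here.

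A circular RNA is made when a downstream splice donor is joined to an upstream acceptor, which leaves a closed loop without ends. An unannotated locus is a stretch of genome where sequencing reads pile up outside the genes of the reference annotation. Such loci can be long noncoding RNAs, RNAs made at enhancers, transcripts started from retroelements, or extensions of known genes whose link to the gene was not assembled. The libraries were made from total RNA after removal of ribosomal RNA, so RNAs without a poly(A) tail could also be recorded. Neither the position nor the sequence of the loci was used here, and no gene, strand or chromosome can be given for them.

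The table is a list that the authors had selected as changed, per the labels, so the loci were seen here through a choice made on the same 6 libraries. Counts of changed loci therefore describe the list, and loci that did not change were not analysed here. Adjusted p-values of single loci carry the same limit, since they do not account for that choice. The unit of the values is not named. Among the annotated rows the smallest value above 0 went down with exon length, from 0.0470 in the shortest eighth of genes (median length 1234.5 bases) to 0.00192 in the longest (median length 10432.5 bases). Multiplied by the length in kilobases, these smallest values stayed between 0.0234 and 0.0606 over the 8 length classes. Levels were therefore read as values scaled to length, and read counts and depth are unknown. Replicate libraries ranked the 723 loci alike, with Spearman correlations across loci from 0.957 to 0.976 within a group. These loci share libraries and are not independent points. Of the markers of other cells that were fixed for this table, 3 of 5 leukocyte genes (Cd68, Cd74 and Lyz2) summed to between 4.19 and 4.68 in control libraries and between 7.39 and 10.0 with overexpression. Of 2 red blood cell genes Hba-a1 was listed, between 0.0965 and 0.236 in controls and between 9.35 and 16.9 with overexpression. None of the 2 endothelial and 2 fibroblast genes was listed, and the table holds only selected rows. Of 6 carcinoma cell genes Krt7 was listed, between 0.271 and 0.339 in controls and between 2.62 and 3.10 with overexpression. Whether other cells were present, or had a part in the results on loci, was not tested.

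Most of the unannotated loci were lower in cells with cEmsy overexpression. Of the 723 loci 452 (62.5%) were lower and 271 (37.5%) higher, whereas of the 1786 annotated rows 817 (45.7%) were lower and 969 (54.3%) higher. The 114 predicted and Riken genes of the table, which are annotated but mostly uncharacterised transcripts, leaned the other way, with 32 lower (28.1%) and 82 higher (71.9%). The groups did not overlap in 722 of the 723 loci, beside 99.7% of all rows of this selected table. In limma on log2(value + 1), 600 loci had the mean of 0.5 or more that testing needed. All 600 passed an adjusted p of 0.05, 388 lower and 212 higher, where 100% of the 2111 tested rows passed when rounded (2110 rows), 52.6% lower and 47.3% higher. The 123 loci under that mean, 64 lower and 59 higher, were described but not tested. The median log2 change was -0.81 over the 600 tested loci, 0.54 over the 1511 tested annotated rows and 0.95 over the 100 tested predicted and Riken genes. These medians are descriptions of the list, since rows had been chosen for their difference. Each one is taken over higher and lower rows together. Within a direction the medians on this scale lay closer together. They were -1.13 for lower loci and -1.16 for lower annotated rows, and 0.94 for higher loci and 1.07 for higher annotated rows. This scale understates the change of low loci. As ratios of the higher group mean to the lower, the medians over all rows were 6.24 for lower loci and 2.87 for lower annotated rows. For higher loci and higher annotated rows they were 5.47 and 2.98. The library median over the 2111 tested rows itself lay 0.20 lower with overexpression on the same log2 scale, and centring the libraries on it changed the direction of none of the 600 loci.

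**Figure D1:**
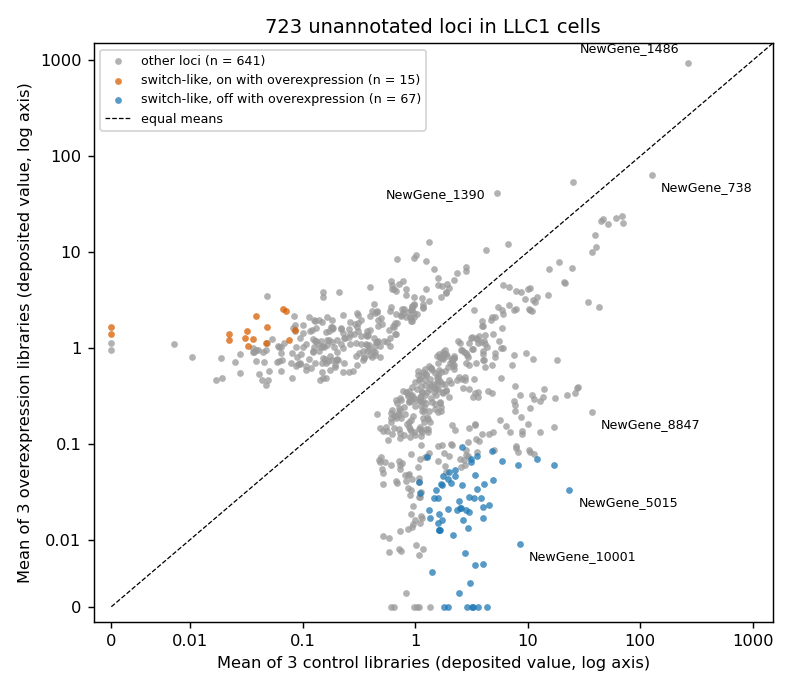
Mean deposited value of each of the 723 unannotated loci in 3 control libraries (x axis) and in 3 libraries with cEmsy overexpression (y axis), on log axes with 0 drawn at the edge; each point is a locus and the dashed line marks equal means. More loci lie under the line (452) than over it (271), and the 67 loci coloured as off with overexpression reach farther from it than the 15 coloured as on.

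The library totals moved the same way. The values of the 723 loci summed to 2664, 2582 and 2646 in the control libraries and to 2053, 2082 and 1905 with overexpression. As a share of the whole table the loci went from between 8.27% and 8.42% to between 6.57% and 6.65%. The annotated rows summed to between 28628 and 29013 in controls and to between 27089 and 29203 with overexpression, so their 2 ranges overlapped. A single locus, NewGene_1486, held 8.92% to 10.8% of the loci's sum in controls and 45.7% to 48.2% with overexpression. Without it, the sum over the other 722 loci was 2364 ± 54.9 in controls and 1076 ± 49.1 with overexpression (SD, n = 3 each). The median locus went from between 1.07 and 1.12 to between 0.592 and 0.626. Between 374 and 394 loci stood at 1 or more in a control library, and between 238 and 265 in an overexpression library. Loci listed at 0 numbered 12, 12 and 15 in the control libraries and 42, 43 and 50 in the overexpression libraries.

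Levels of the loci were low. The median of the mean over 6 libraries was 0.961 for the loci, 1.57 for the predicted and Riken genes and 3.78 for all annotated rows. Means of 10 or more were reached by 26 loci and by 518 annotated rows. The lowest mean of the higher group was 0.409 among the loci and 0.0168 among the annotated rows, so the list of loci had an edge that the annotated rows did not share. The direction went with the level. Of the 123 loci with a mean under 0.5, 52.0% were lower with overexpression. That share was 56.5% of 253 loci between 0.5 and 1, 64.6% of 178 between 1 and 2, 69.5% of 105 between 2 and 5, 89.5% of 38 between 5 and 10, and 88.5% of 26 at 10 or more. Annotated rows also had a larger lower share at higher levels, from 34.2% of 275 rows under 0.5 to 55.6% of 518 rows at 10 or more. In each of the 6 level classes the share of lower rows was larger among the loci than among the annotated rows. With the level taken as the mean of the higher group, a choice made after seeing the data, the share among loci ran from 35.7% of 14 loci under 0.5 to 88.9% of 54 at 10 or more.

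**Figure D2:**
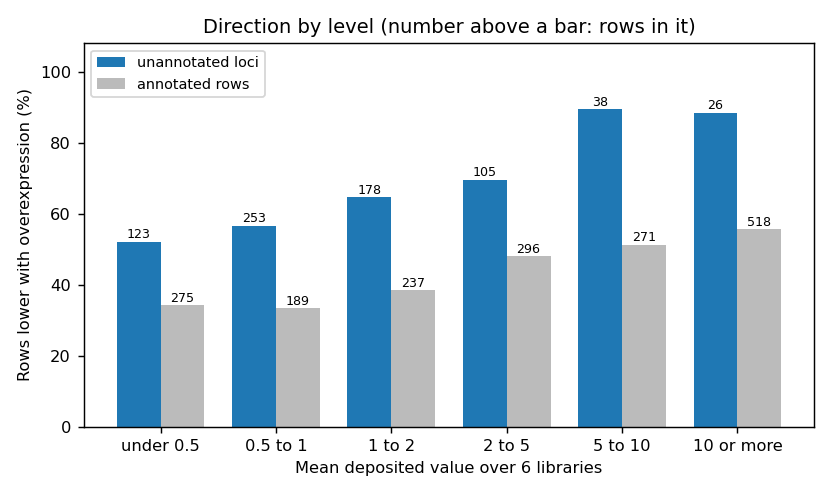
Share of rows that were lower with cEmsy overexpression (y axis, percent) by the mean deposited value over the 6 libraries (x axis, classes), for unannotated loci (blue) and annotated rows (grey); the number above a bar is the number of rows. The share among loci goes from 52.0% in the lowest class to 89.5% and 88.5% in the highest 2 classes, and the blue bar is above the grey one in each class.

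Folds were large among the loci. The fold is here the higher of the 2 group means over the lower, and it was left out for 17 loci listed at 0 throughout a group. Its median was 5.89 for the loci, 4.82 for the predicted and Riken genes and 2.91 for the annotated rows. A fold of 4 or more was found in 446 of the 723 loci (61.7%) and in 552 of the 1786 annotated rows (30.9%), and a fold of 10 or more in 252 (34.9%) and 189 (10.6%). A fold of 100 or more was found in 43 loci, 42 of them lower with overexpression. Within classes of the mean over 6 libraries the medians also stood apart. They were 7.52 for loci and 4.45 for annotated rows with a mean under 0.5, and 9.34 and 2.65 with a mean between 5 and 10. At a mean of 10 or more they were 3.61 and 2.48. The lowest class is not a matched one, since the higher group's mean was at least 0.409 for loci and went down to 0.0168 for annotated rows. By classes of the higher group's mean, the medians were 5.36 and 3.94 between 0.5 and 1. They were 7.34 and 2.69 between 5 and 10, and 4.51 and 2.58 at 10 or more. Lower loci had a median of 1.83 in controls and 0.237 with overexpression, and higher loci a median of 0.229 in controls and 1.34 with overexpression. The median coefficient of variation in the higher group was 13.3% for the loci, 13.8% for the predicted and Riken genes and 8.45% for all annotated rows, which stood at higher levels. By level class, the mean coefficients of loci and annotated rows were 17.0% and 17.1% under 0.5, 16.6% and 15.8% between 0.5 and 1, 14.1% and 13.6% between 1 and 2, 13.4% and 9.92% between 2 and 5, 6.75% and 8.06% between 5 and 10, and 9.55% and 6.67% at 10 or more.

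The highest locus by far was NewGene_1486. Its values were 285, 278 and 236 in the control libraries and 989, 952 and 871 with overexpression, which is 266 ± 26.5 against 937 ± 60.4 (SD, n = 3 each), a fold of 3.52. Every overexpression library stood far above the highest control library. It rose by 1.81 ± 0.09 (SE) on the log2 scale (limma, adjusted p = 3.45e-08). The next loci in level all fell. NewGene_738 stood at 120.5, 125 and 135 in controls and at 68.0, 69.0 and 54.9 with overexpression, a fold of 1.98. NewGene_2470 stood at 66.1, 73.8 and 71.0 and then at 19.3, 20.1 and 20.2, a fold of 3.53. NewGene_741 went from 69.1 ± 0.889 to 23.6 ± 0.719 and NewGene_3757 from 60.7 ± 3.96 to 22.8 ± 3.54 (SD, n = 3 each). The groups were apart in each of these 4 loci, and the narrow spread within groups went with moderate folds, from 1.98 to 3.53. Of the 26 loci at 10 or more, 3 were higher with overexpression: NewGene_1486, NewGene_1390 and NewGene_4028, the last from 25.5 ± 0.280 to 53.3 ± 12.2 (SD, n = 3 each), with 60.5, 60.1 and 39.2 in its overexpression libraries.

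The 8 largest increases on the log2(value + 1) scale lay between 2.01 and 2.73. NewGene_1390 led them, at 5.40, 4.76 and 5.97 in controls and 38.4, 50.6 and 36.2 with overexpression (log2 change 2.73 ± 0.13, SE). NewGene_9880 stood at 1.25, 1.24 and 1.47 and then at 11.5, 15.3 and 11.1, a fold of 9.59. NewGene_9065 stood at 0.810, 0.650 and 0.615 and then at 8.99, 8.09 and 8.20, a fold of 12.2. These loci were above 0 in every control library. NewGene_3091, NewGene_9887 and NewGene_9335 rose by 9.09-fold, 8.84-fold and 6.46-fold from control means near 1 (1.02 ± 0.173, 0.984 ± 0.391 and 1.25 ± 0.186, SD, n = 3 each). NewGene_8435 went from 0.153 ± 0.0293 to 3.82 ± 0.555 (SD, n = 3 each). NewGene_8444 was listed at 0 in 2 control libraries and at 0.145 in the other, and stood at 2.38, 4.91 and 3.17 with overexpression. Its control level thus rests on a single library. Adjusted p-values of these 8 loci in limma ranged from 6.56e-09 to 1.53e-06 and do not account for the authors' selection. The ranking holds for a pseudocount of 1. With 0.1 the log2 change was 2.92 for NewGene_1390 and 4.67 for NewGene_8444. It was then 4.12 for NewGene_5864, which is not among the 8.

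The 8 largest decreases had log2 changes from -4.97 to -3.97 on the log2(value + 1) scale. Sizes of rises and falls depend on the pseudocount where a group is near 0. With 0.01 the log2 changes of these 8 loci ran from -9.12 (NewGene_5015) to -6.07 (NewGene_2655). Those of the 8 largest increases then ran from 2.68 (NewGene_9335) to 7.07 (NewGene_8444), with 4.56 (NewGene_8435) the next highest. NewGene_8847 stood at 37.8, 33.8 and 39.7 in controls and at 0.222, 0.209 and 0.211 with overexpression, a fold of 173. It fell by 4.97 (SE 0.08) on the log2 scale (limma, adjusted p = 2.45e-10). NewGene_5015 stood at 23.2, 22.5 and 24.8 and then at 0.0282, 0.0413 and 0.0288, a fold of 717. Both were among the higher loci of the list in every control library and under 0.5 in every overexpression library. NewGene_6246 went from 28.2 ± 0.318 to 0.387 ± 0.0772, NewGene_4016 from 22.4 ± 0.716 to 0.321 ± 0.115 and NewGene_2284 from 17.0 ± 1.69 to 0.148 ± 0.107 (SD, n = 3 each). NewGene_6496 and NewGene_6494, which carry nearby numbers, are described below with their neighbours. NewGene_2655 had the widest control spread of the 8, at 37.2, 18.3 and 26.2, against 0.373, 0.333 and 0.437 with overexpression. Even its lowest control library was far above its overexpression libraries.

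Some loci behaved like a switch. A locus was called on with overexpression when every overexpression library was at 1 or more and every control library at 0.1 or less, and off when the groups were exchanged. By this rule 67 loci were off and 15 on. Of all 2509 rows 3.07% were off and 1.32% on, and among annotated rows 10 were off and 18 on. Off loci made up 14.8% of the loci that were lower, and on loci 5.54% of those that were higher. Among annotated rows these shares were 1.22% and 1.86%. These shares are not matched for level, and annotated rows stood at higher levels. With a mean between 0.5 and 1, 34 of 253 loci and 12 of 189 annotated rows were on or off. Between 1 and 2 these were 34 of 178 loci and 13 of 237 annotated rows. Between 2 and 5 they were 11 of 105 and 3 of 296, and between 5 and 10 they were 2 of 38 and 0 of 271. At 10 or more they were 1 of 26 and 0 of 518. Under 0.5, where the rule cannot be met, they were 0 of 123 and 0 of 275. The off loci reached higher levels in the group where they were present, with control means from 1.09 to 23.5 (median 2.63), than the on loci, with overexpression means from 1.05 to 2.58 (median 1.40). Their folds ran from 17.6 to 951 for the 60 off loci and from 15.9 to 62.6 for the 13 on loci whose other group was above 0. With both thresholds moved, to 2 or more in the group that was on and 0.2 or less in the other, 61 loci were off and 4 on, of which 39 and 1 were also off and on by the first rule. The rule cut through a continuum. NewGene_3438 was just inside it with a highest overexpression library of 0.0991, and NewGene_1601 just outside with 0.105. NewGene_4282 was just inside with a lowest overexpression library of 1.00, and NewGene_9550 just outside with 0.945, although it was listed at 0 in all 3 control libraries.

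**Figure D3:**
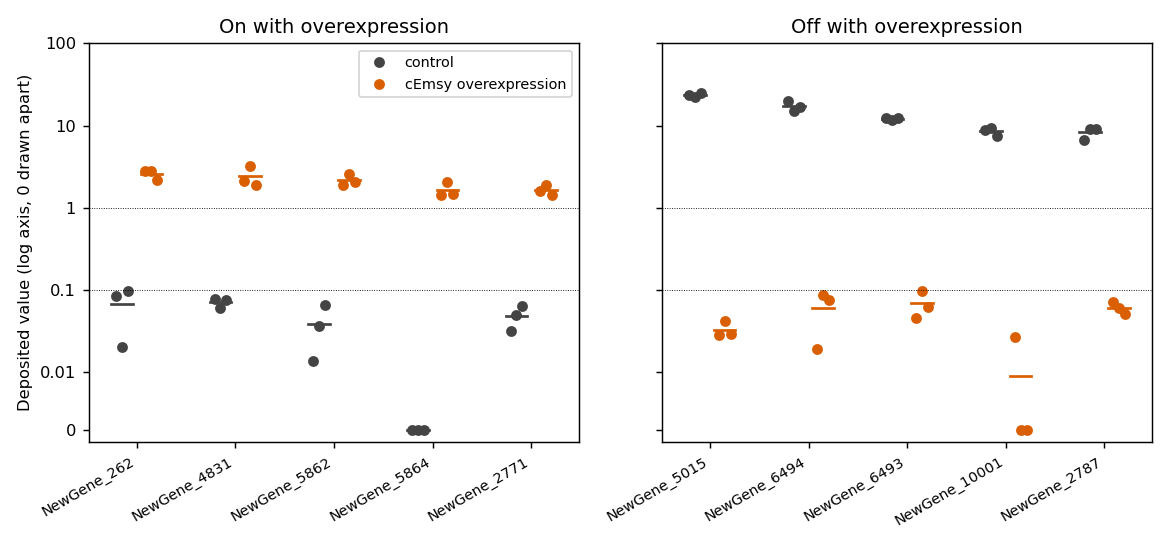
Deposited values by library (y axis, log scale with 0 drawn apart) of the 5 switch-like loci with the highest level in each direction; grey points are the 3 control libraries, orange points the 3 overexpression libraries, short bars the group means, and dotted lines the thresholds of 1 and 0.1. The off loci stand between 6.71 and 24.8 in controls, whereas the on loci stand between 1.44 and 3.21 with overexpression.

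Beside NewGene_5015 and NewGene_6494, the off loci with the highest control levels were NewGene_6493, NewGene_10001 and NewGene_2787. NewGene_10001 stood at 8.74, 9.43 and 7.56 in controls and was listed at 0.0271, 0 and 0 with overexpression, which gave a fold of 951 that rests on a single value above 0. NewGene_2787 stood at 6.71, 8.99 and 9.10 and then at 0.0707, 0.0599 and 0.0512, a fold of 136. In each of these loci the replicates of a group lay close together beside the distance between the groups. The on loci were led by NewGene_262, at 0.0841, 0.0204 and 0.0966 in controls and 2.77, 2.79 and 2.16 with overexpression, a fold of 38.4. NewGene_4831 went from 0.0713 ± 0.00913 to 2.40 ± 0.707 and NewGene_2771 from 0.0482 ± 0.0162 to 1.64 ± 0.226 (SD, n = 3 each). The other 2 of the 5, NewGene_5862 and NewGene_5864, carry neighbouring numbers.

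A value of 0 throughout a group was found in 17 loci. Of these, 13 were listed at 0 in all overexpression libraries, with control means from 0.608 to 4.38 (median 1.81). The highest was NewGene_2564, at 4.79, 3.61 and 4.74 in controls, followed by NewGene_408 at 4.03, 2.63 and 4.14. The other 4 were listed at 0 in all controls, with overexpression means from 0.954 to 1.67: NewGene_5740, NewGene_5864, NewGene_5865 and NewGene_9550. NewGene_2564, NewGene_408, NewGene_5740 and NewGene_9550 were named for this pattern after their values were seen. Among annotated rows 3 were listed at 0 in all overexpression libraries and 6 in all controls, too few to read a balance from. Depth is unknown, so no limit can be set on what a listed 0 allows, and no fold is given.

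Loci with close numbers tended to have the same direction. How the authors assigned the numbers is not given in the sources used here, so a small difference between numbers is not shown to be a small distance on a chromosome. Of the 79 pairs of loci with consecutive numbers 66 (83.5%) had the same direction, beside 53.1% of all 261003 pairs. The share was 75.7% of 140 pairs whose numbers were 2 or 3 apart, 62.9% of 124 pairs 4 or 5 apart and 59.2% of 267 pairs 6 to 10 apart. At 11 to 20 apart it was 53.2% of 506 pairs, and beyond that it lay between 51.3% and 53.8%. The pairs share loci and libraries and are not independent.

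**Figure D4:**
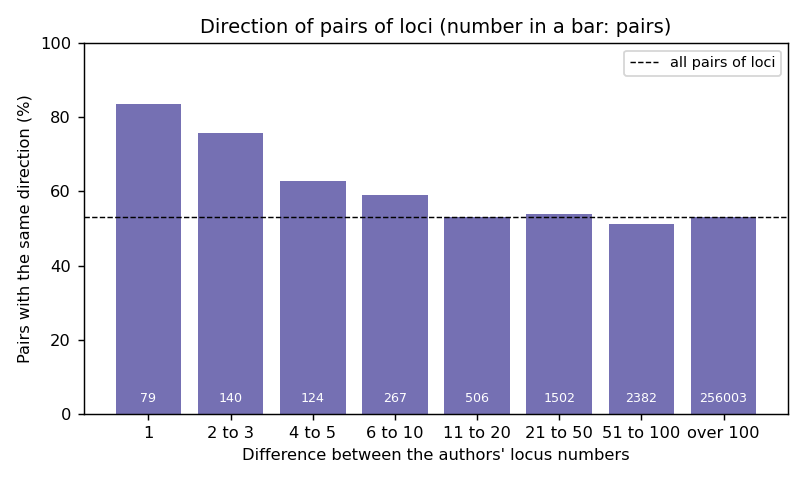
Share of pairs of loci with the same direction (y axis, percent) by the difference between their numbers (x axis, classes); the number in a bar is the number of pairs, and the dashed line is the share over all pairs, 53.1%. The bars go from 83.5% for consecutive numbers to about the dashed line from 11 to 20 onward.

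Chains of numbers with steps of 3 or less were then listed, a choice made after seeing the data. There were 121 chains of 2 or more loci, 81 of them in a single direction, and 421 loci had no such neighbour. Of 30 chains of 3 or more loci, 15 had a single direction, and of 7 chains of 5 or more, 5 did. The rest were mixed. Which share to expect in a list where most loci were lower was not worked out. The chain NewGene_5862 to NewGene_5868 held 6 loci, and all 6 were higher with overexpression. NewGene_5862 stood at 0.0138, 0.0365 and 0.0653 in controls and at 1.87, 2.57 and 2.06 with overexpression. NewGene_5864 and NewGene_5865 were listed at 0 in all controls and stood at 1.45, 2.08 and 1.47 and at 1.33, 1.71 and 1.15. The 6 loci had overexpression means within a narrow band, from 1.40 to 2.16, and in each of them the second overexpression library was the highest. Of the 15 on loci 4 came from this chain.

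**Figure D5:**
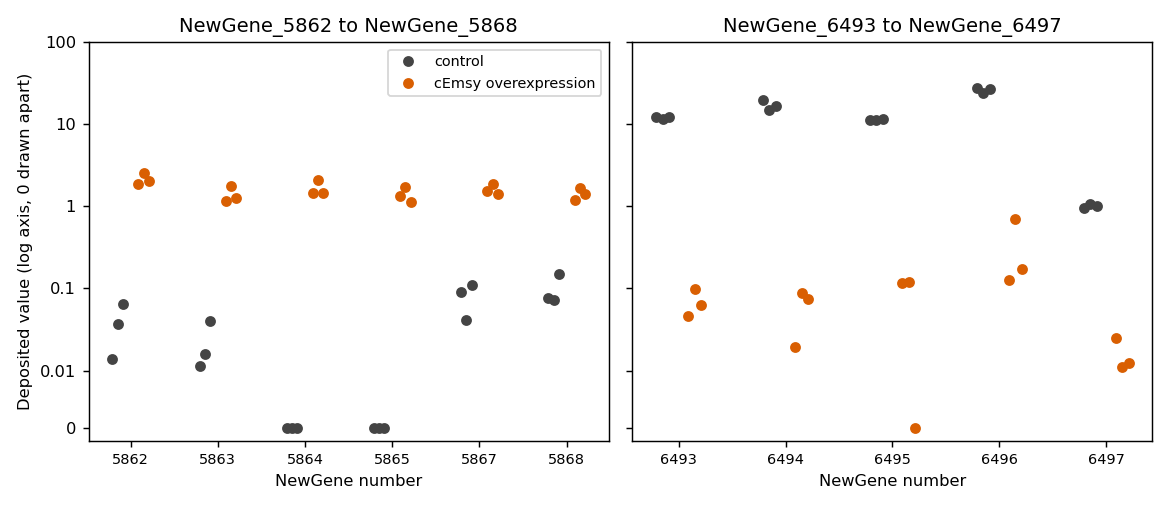
Deposited values by library (y axis, log scale with 0 drawn apart) of the loci in 2 chains of close numbers (x axis); grey points are the 3 control libraries and orange points the 3 overexpression libraries. All 6 loci of the left chain are higher with overexpression, at 1.15 to 2.57, and all 5 of the right chain are lower, 4 of them from control values between 11.2 and 27.9.

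The chain NewGene_6493 to NewGene_6497 held 5 loci that were all lower. NewGene_6496 stood at 27.9, 24.2 and 27.1 in controls and at 0.127, 0.711 and 0.172 with overexpression. NewGene_6494 stood at 19.8, 14.9 and 16.8 and then at 0.0192, 0.0873 and 0.0752, a fold of 283. NewGene_6493 and NewGene_6495 had control means of 12.1 and 11.4, and NewGene_6497, the lowest, went from 1.00 to 0.0160. Folds in this chain thus lay between 62.8 and 283, although control levels differed among its loci. In the chain NewGene_7698 to NewGene_7710 all 8 loci were lower, with folds from 2.36 to 28.7. NewGene_7698 stood at 42.5, 41.0 and 44.2 in controls and at 3.16, 3.43 and 1.44 with overexpression. NewGene_7701 stood at 34.3, 32.3 and 35.7 and then at 1.98, 1.74 and 5.25. The third overexpression library was the lowest for the first of these loci and the highest for the second. Together the 8 loci summed to 88.2 in the control mean and 8.28 in the overexpression mean.

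The other chains of 5 or more loci had a single direction or were mixed. All 5 loci from NewGene_4261 to NewGene_4267 were lower, with control means between 0.717 and 1.69 and folds from 10.9 to 90.5. The chain that begins with the abundant NewGene_738 and NewGene_741 ended with 3 low loci, of which NewGene_743 was listed at 0 in all overexpression libraries, and all 5 were lower. Of the 6 loci from NewGene_3087 to NewGene_3095, 5 were higher, among them NewGene_3091 at 8.64, 10.2 and 8.88 with overexpression, and NewGene_3090 was lower. The 7 loci from NewGene_9891 to NewGene_9900 split by number. NewGene_9891, NewGene_9892 and NewGene_9893 were higher, with overexpression means of 3.82, 4.59 and 5.04. NewGene_9896, NewGene_9897, NewGene_9899 and NewGene_9900 were lower, and NewGene_9899 went from 4.12, 3.50 and 4.41 in controls to 0.0169, 0 and 0.

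The loci closest to no change marked the other end of the list. NewGene_2601 was the only locus whose groups overlapped, at 0.704, 0.274 and 0.475 in controls and 0.859, 0.892 and 0.643 with overexpression. Its log2 change of 0.28 ± 0.11 (SE) passed in limma (adjusted p = 0.031) but did not without the second or the third control library, without the first or the second overexpression library, or with a pseudocount of 0.01. NewGene_5018 went from 3.33 ± 0.293 to 2.49 ± 0.333 (SD, n = 3 each; fold 1.34). NewGene_10219 stood at 6.24, 6.08 and 5.68 in controls and at 4.31, 4.75 and 4.61 with overexpression (fold 1.32). The smallest fold among the loci was 1.32 and among annotated rows 1.65, and 17 loci were under 2-fold. On values centred on the median over the tested rows, NewGene_5018 and NewGene_10219 kept their direction and did not pass.

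Single libraries left a mark on some loci. Among the 452 lower loci the second control library was the lowest of the 3 controls in 201, the first in 124 and the third in 127. Among the 271 higher loci the second overexpression library was the highest of its group in 136, the first in 60 and the third in 75. The same counts were not made over annotated rows. Their sum was also lowest among controls in the second library (28628), and highest with overexpression in the second (29203). The widest spreads in the higher group, named after their values were seen, were those of NewGene_161, at 2.90, 0.975 and 1.77 in controls, and NewGene_193, at 2.88, 0.871 and 2.27. NewGene_1038 stood at 11.9, 4.22 and 10.9 in controls. The second control library was the low one in these, and the high one in NewGene_7702, at 0.789, 1.89 and 1.03, and in NewGene_6624, at 0.648, 1.65 and 0.995. NewGene_2466 varied most among higher loci, at 6.71, 4.00 and 2.48 with overexpression against 1.59, 1.80 and 1.76 in controls. Even so, the lowest library of the higher group was above the highest of the other group in each of these 6 loci.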

How the data were processed

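Total RNA was depleted of ribosomal RNA and made into stranded libraries, per the labels' protocols. The authors deposited a table of signal values per row in 6 libraries, whose unit and normalization the file headers do not name; the labels describe it as a list of differentially expressed genes. STAR and featureCounts, with FastQC and MultiQC, are named in the submitters' processing notes, as are mm10 and hg19. No version is given there. How the loci were assembled and numbered, and whether strand was used, is not given in the sources used here. Depth is unknown.

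The members and lists were chosen with earlier results of these data known. All rows with a mean of 0.5 or more (2111) were fitted together on log2(value + 1) in limma 3.58.1 (R 4.3.3), using its mean-variance trend, with Benjamini-Hochberg adjustment over them. That scale understates the change of low loci. The fit was tested on simulated data, with changes planted only in rows at higher control levels than most loci have. The authors' selection was not simulated, so the test does not cover most of these loci. Named loci are the 8 largest increases and decreases, the 5 highest means, the 5 highest switch-like loci in each direction, the 3 smallest changes, and those not called or overlapping. Loci named as members of chains, at 0 in a group, at a threshold, at a mean of 10 or more or with a wide spread were chosen after their values were seen. Exon lengths came from GENCODE M21. Count tests had been foreseen, but no counts were in the table. The other deposited tables hold none of these loci and were not used.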

Additional observations from a re-analysis of the deposited data

How the results depend on the processing

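The count of loci passing as higher (212) and lower (388) stayed within 210 to 212 and at 388 without any single library. It was 211 and 388 with a pseudocount of 0.01, where NewGene_2601 did not pass, and 212 and 382 with libraries centred on the median tested row. A required mean of 2 or more left 39 higher and 130 lower, since fewer loci were tested. No tested locus changed direction in any of these fits. The median log2 change of -0.81 became -1.44 with a pseudocount of 0.1 and -1.57 with 0.01, -0.67 without the filter and -1.41 with a mean of 2 or more. It became -0.61 centred on all tested rows and -0.69 centred on annotated rows, and ranged from -0.82 to -0.78 without single libraries. At thresholds of 2 and 0.2 the count of on loci was 4, of which 1 was among the 15. When the other group had to be exactly 0, 2 on and 7 off loci were left of 15 and 67. Without single libraries the counts were 15 to 20 on and 69 to 75 off. No paired analysis was possible because the control columns carry no link to numbered control samples. Count tests could not be run on values without counts. The selected list, the unnamed unit and the unknown depth limit all of these results.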
